A study of Homo sapiens with 4 samples.

Results

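The transcripts of the mitochondrial genome were examined in 2 established human cell lines of pancreatic cancer, SW1990 and PANC-1, each left unirradiated or treated with 10 Gy of X-ray radiation. The members were all rows of the deposited gene table whose name begins with MT- and whose position lies on chromosome MT. They were 37 of 58174 genes and comprised 13 protein genes, 2 ribosomal RNA (rRNA) genes and 22 transfer RNA (tRNA) genes. There were 4 groups of 1 library each, namely unirradiated SW1990, irradiated SW1990, unirradiated PANC-1 and irradiated PANC-1 cells. The lines were grown in different media with serum, so cell line and medium cannot be told apart, and the time from radiation to RNA extraction is not given in the sources used here. Reads on genes summed to 17851815 and 18305682 in the unirradiated and irradiated SW1990 libraries, and to 23323266 and 20026595 in the PANC-1 libraries. With no replicates the spread between samples of a group is unknown, and all intervals below are 95% intervals that cover counting error only.

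The mitochondrial genome is a small circle that is transcribed from both strands into long precursor RNAs. The tRNAs lie between most of the other genes, and cutting them out releases the messengers and rRNAs, most of which then receive short poly(A) tails, while the messenger of MT-ND6 is known to lack one. The proteins are core subunits of the respiratory chain and of ATP synthase, while all enzymes that copy, transcribe and process this genome are encoded in the nucleus. Its genes have no introns, so each member is a continuous stretch of the genome. In RNA of a whole culture, fewer mitochondrial genomes per cell and less RNA from each genome cannot be told apart.

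Several neighbours overlap, so a read in the shared stretch can be given to either gene. All 37 rows had the coordinates and strand of GENCODE release 29 on GRCh38. The sequences of the 3 same-strand overlaps between protein genes are shown because the protein gene with the largest change lies between 2 of them. Shared bases are in capitals with 20 bases on each side, taken from the GENCODE transcripts.
MT-ATP8/MT-ATP6, chrM:8507-8592, plus strand: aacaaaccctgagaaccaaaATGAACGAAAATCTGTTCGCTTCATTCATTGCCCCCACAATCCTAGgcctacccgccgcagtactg
MT-ATP6/MT-CO3, chrM:9187-9227, plus strand: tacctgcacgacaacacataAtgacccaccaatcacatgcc
MT-ND4L/MT-ND4, chrM:10740-10786, plus strand: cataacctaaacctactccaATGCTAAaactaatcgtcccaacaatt
The overlap of MT-ATP8 and MT-ATP6 is 46 bases long, that of MT-ATP6 and MT-CO3 is 1 base and that of MT-ND4L and MT-ND4 is 7 bases. MT-TC and MT-TY share 1 base on the same strand, and MT-TI and MT-TQ share 3 bases on opposite strands. Whether the reads were counted by strand is not given in the sources used here, so reads from opposite strands of one position may not have been told apart.

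Mitochondrial genes took 4.418% of the gene counts in unirradiated SW1990 cells (Wilson interval 4.408% to 4.427%) and 5.557% in irradiated ones (5.547% to 5.568%). In PANC-1 cells they took 3.304% without radiation (3.297% to 3.311%) and 2.994% with it (2.986% to 3.001%). Thus the share was higher in the irradiated library of SW1990 and lower in that of PANC-1 cells, and the intervals within a line did not overlap. Between 99.70% and 99.86% of these counts lay on the protein genes. The rRNA genes held 347 and 750 counts in SW1990 and 275 and 281 counts in PANC-1 cells, and the tRNA genes 782, 1139, 1973 and 1534 counts in the same order of libraries. The sample records describe the RNA as depleted of rRNA, whereas the protocol names a library kit for mRNA, and the part of this step in the low rRNA and tRNA counts was not tested.

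Most of the protein genes were among the most abundant transcripts of the cells. By FPKM, the deposited value per length of transcript and number of mapped fragments, 9 of the 20 highest genes were mitochondrial in unirradiated SW1990, 10 in irradiated SW1990, 7 in unirradiated PANC-1 and 8 in irradiated PANC-1 cells. MT-ND4, a proton-pumping subunit of complex I (NADH dehydrogenase), had the highest level of the 13 in SW1990 cells, with an FPKM of 4932 without and 6232 with radiation. MT-CO1, the catalytic subunit of complex IV (cytochrome c oxidase), was highest in PANC-1 cells, with an FPKM of 4402 without and 3539 with radiation. MT-CO1, MT-CO2 and MT-ND4 took the first 3 places in every library, so the same genes headed the order, although not in the same places.

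The lower end of the order was also shared. MT-ND6, the complex I subunit that is the only protein gene coded in the opposite direction to the other 12, had the lowest FPKM in 3 libraries, with 168, 170 and 244 in unirradiated SW1990, irradiated SW1990 and unirradiated PANC-1 cells. In irradiated PANC-1 cells MT-ND3 (286) lay below MT-ND6 (330). Among all genes MT-ND6 ranked 274 and 256 by FPKM in unirradiated and irradiated SW1990 cells, and 182 and 111 in PANC-1 cells. MT-ATP8 and MT-ATP6, which encode subunits of the membrane part of ATP synthase, lay at places 10 and 11 in both unirradiated libraries, with MT-ATP8 above MT-ATP6 in SW1990 and below it in PANC-1 cells. In both irradiated libraries MT-ATP6 stood at place 5 and MT-ATP8 at place 11. The level of the highest gene was 29.3 times that of the lowest in unirradiated SW1990, 36.7 times in irradiated SW1990, 18.1 times in unirradiated PANC-1 and 12.4 times in irradiated PANC-1 cells.

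**Figure D1:**
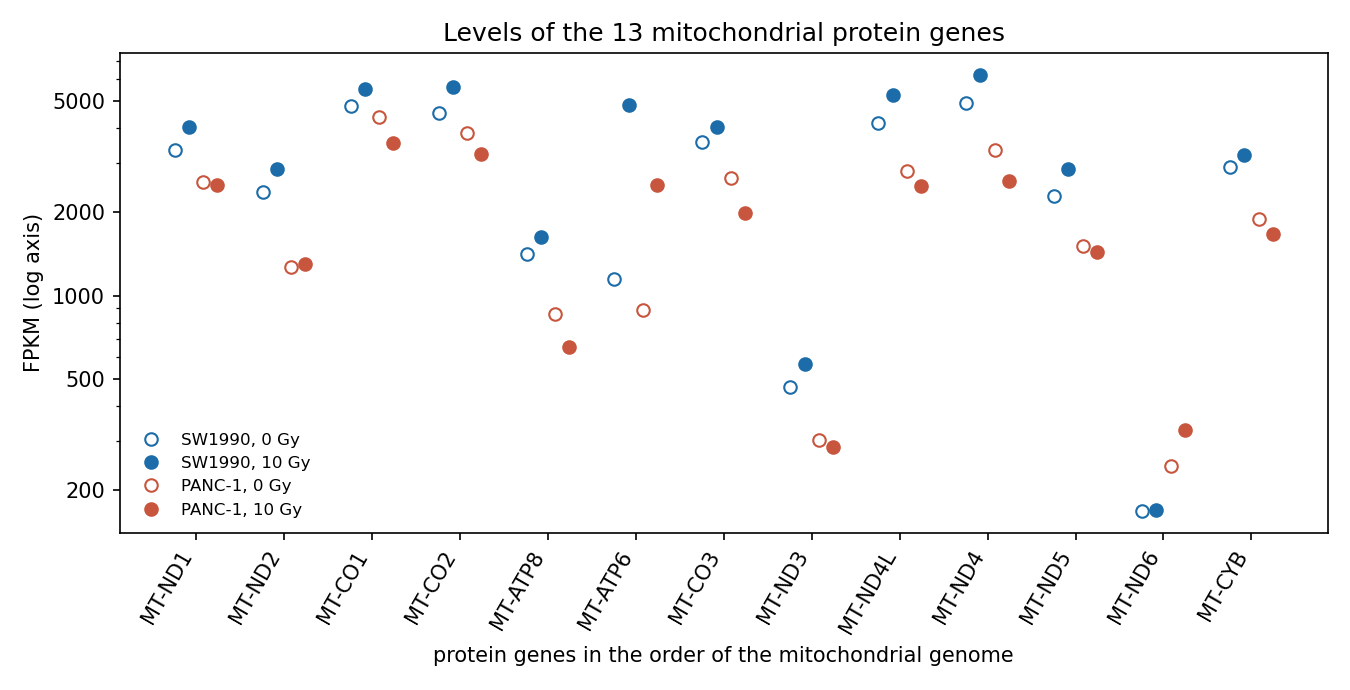
FPKM on a log axis for the 13 mitochondrial protein genes in the order of the genome, with 1 point for each library (open circles without radiation, filled circles with 10 Gy, SW1990 in blue and PANC-1 in red). MT-ATP6 is the gene whose filled points lie far above its open ones in both lines, from 1152 to 4870 and from 889 to 2498, and MT-ND6 lies near the bottom in all 4 libraries.

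To compare the treatments, the irradiated library of each line was set against the unirradiated one by a conditional binomial test of the reads, with library sizes scaled by TMM (trimmed mean of M-values) and Benjamini-Hochberg adjustment over all genes tested. Genes that reached an FPKM of 1 in either library were tested, and a call needed both a q-value under 0.001 and more than a 2-fold difference. The test compares libraries and not conditions.

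In SW1990 cells all 13 protein genes had more reads per TMM-scaled library after radiation. The summed counts of the 13 went from 787500 to 1015404, a log2 fold change of 0.36 (0.356 to 0.364), and the median over the 13 genes was 0.29, against -0.01 over all 15731 genes tested. The counting interval lay above 0 for 12 of the 13 genes and included 0 for MT-ND6. Of all genes tested 49.3% were higher, and the share with an interval above 0 was not worked out. In total, 3 of 35 mitochondrial genes tested were called, all higher, where 4.2% of all genes tested were called in either direction and 2.26% were called higher. They were MT-ATP6, MT-RNR2 and the tRNA gene MT-TM, and no test sets this count apart from the background. MT-ATP6 contributed much to the sum, and the log2 fold change of the other 12 genes together was 0.28.

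In PANC-1 cells 11 of the 13 protein genes had fewer reads per TMM-scaled library after radiation and the intervals of all 11 lay below 0, although MT-ND2 turned positive with libraries scaled by total counts or from FPKM. The summed counts of all 13 went from 768400 to 597745, a log2 fold change of -0.232 (-0.237 to -0.227), and the median was -0.25, against -0.02 over all 15159 genes tested. The size depended on the scaling, with -0.1425 for the sum and -0.1576 for the median by total counts, and -0.114 and -0.1684 by FPKM. MT-ATP6 and MT-ND6 were the exceptions, with intervals above 0. Of all genes tested in PANC-1 cells 48.3% were higher, and the share with an interval below 0 was not worked out. The calls were 2 of 34 mitochondrial genes tested, where 4.77% of all genes tested were called in either direction and 2.42% were called higher. These were MT-ATP6, which was higher, and the rRNA gene MT-RNR1, which was lower. Without MT-ATP6 the log2 fold change of the sum was -0.31. With an assumed coefficient of variation of 0.2 between replicates, MT-ATP6 in SW1990 cells was the only mitochondrial call left in either line, and with 0.4 there was none. Of all genes tested, 0.629% in SW1990 and 0.679% in PANC-1 cells were called with 0.2, and 0.0954% and 0.066% with 0.4. Of the 723 calls over all genes, 50.8% were higher, and 62.1% of 744 were when libraries were scaled by their total counts in place of TMM.

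**Figure D2:**
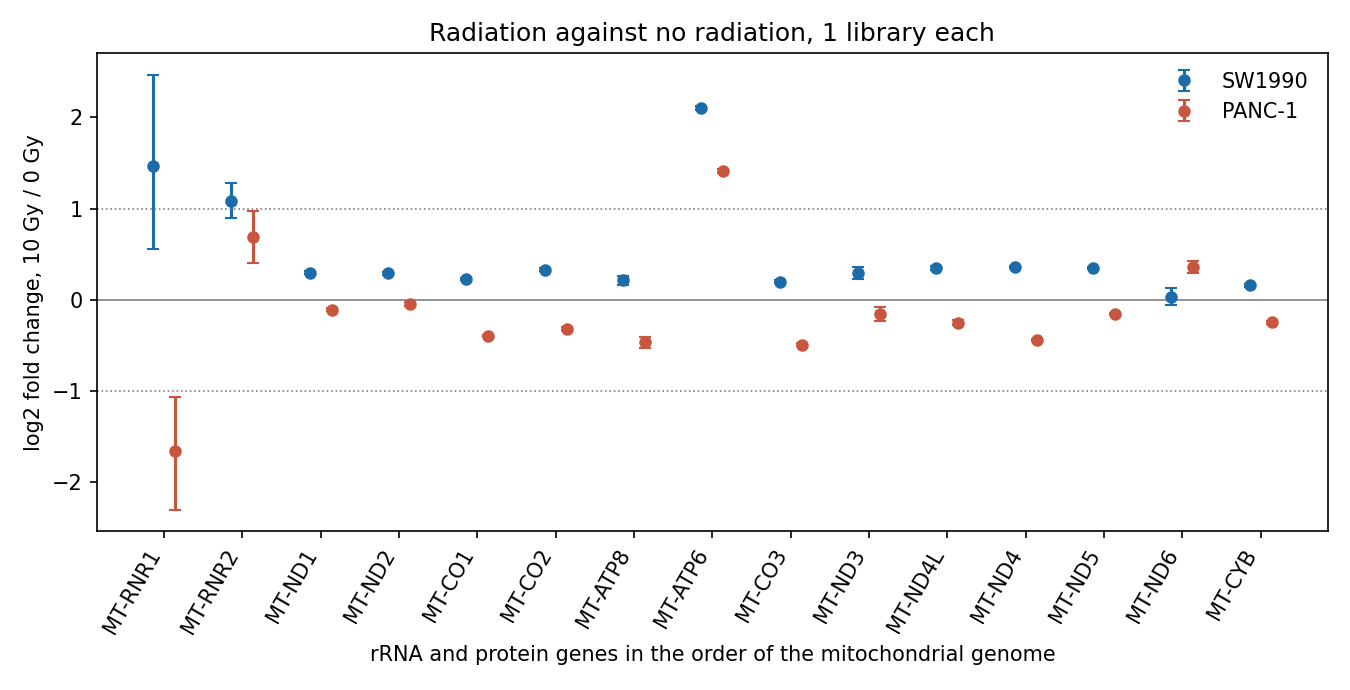
Log2 fold change of irradiated against unirradiated cells for the 2 rRNA and 13 protein genes in the order of the genome, with SW1990 in blue and PANC-1 in red. Bars are 95% counting intervals with 1 library for each condition, and dotted lines mark a fold change of 2. MT-ATP6 stands above the upper dotted line in both cell lines (2.10 and 1.41), while its neighbours MT-ATP8 and MT-CO3 lie at 0.21 and 0.20 in SW1990 and are the lowest protein genes in PANC-1 cells (-0.47 and -0.49).

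MT-ATP6, which lies at chrM:8527-9207 and encodes the subunit of ATP synthase that forms the proton path together with the ring, had the largest change among the protein genes in both lines. Unirradiated SW1990 cells had 17230 and irradiated ones 74171 counts of it, a 4.29-fold difference (log2 fold change 2.10, interval 2.08 to 2.12). In PANC-1 cells it had 17478 and 42514 counts, a 2.66-fold difference (log2 fold change 1.41, interval 1.39 to 1.44). Its FPKM was 1152 and 889 in the unirradiated and 4870 and 2498 in the irradiated libraries of SW1990 and PANC-1, so both irradiated libraries lay above both unirradiated ones. The gene took 2.19% and 2.28% of the counts on the 13 protein genes in unirradiated SW1990 and PANC-1 cells, and 7.31% and 7.11% in the irradiated ones.

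Its neighbours on the same strand did not follow it. MT-ATP8, at chrM:8366-8572, encodes a small subunit of ATP synthase and shares a messenger with MT-ATP6. MT-ATP8 had 6412 and 7474 counts in SW1990 cells (log2 fold change 0.21) and 5125 and 3386 counts in PANC-1 cells (-0.47). MT-CO3, at chrM:9207-9990, encodes a subunit of complex IV and directly follows MT-ATP6. It had 61718 and 71152 counts in SW1990 cells (0.20) and 60156 and 39004 counts in PANC-1 cells (-0.49). All 4 values lay below the medians of the protein genes (0.29 and -0.25), in PANC-1 cells as the lowest 2 of the 13, and none of the differences was called.

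Per length, the ratio of MT-ATP6 to MT-CO3 in FPKM was 0.321 without and 1.20 with radiation in SW1990 cells, and 0.335 and 1.26 in PANC-1 cells. The ratio of MT-ATP6 to MT-ATP8 was 0.814 and 3.01 in SW1990 and 1.03 and 3.81 in PANC-1 cells. The ratio of MT-ATP8 to MT-CO3, the genes on either side of MT-ATP6, was 0.395 and 0.399 in SW1990 and 0.324 and 0.330 in PANC-1 cells. Hence MT-ATP6 relative to MT-CO3 was 3.73 times as high after radiation in SW1990 and 3.75 times in PANC-1 cells, whereas its neighbours kept their proportion to each other (1.01 and 1.02 times). These ratios are within a library, so they do not depend on how libraries were scaled. The counts of the 3 genes together, which do not depend on how reads in their overlaps were divided as long as each was counted once, gave a log2 fold change of 0.83 in SW1990 and 0.17 in PANC-1 cells.

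**Figure D3:**
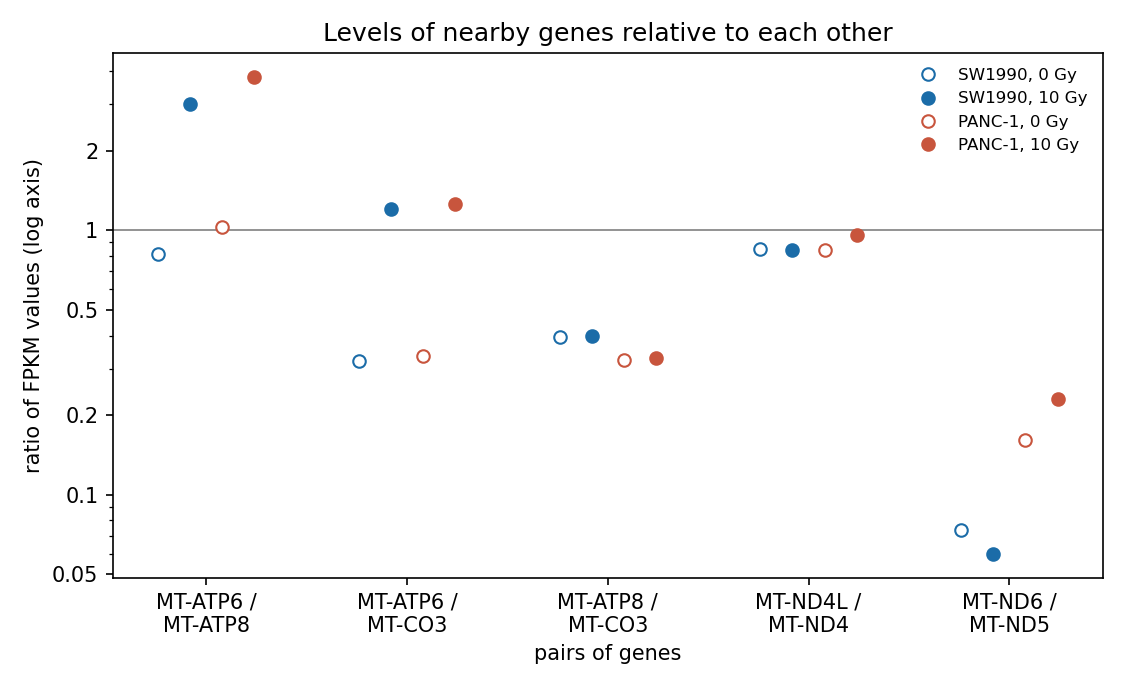
Ratio of the FPKM values of pairs of mitochondrial genes in each library, on a log axis (open circles without radiation, filled circles with 10 Gy, SW1990 in blue and PANC-1 in red). The pairs with MT-ATP6 separate the irradiated from the unirradiated libraries (1.20 and 1.26 against 0.321 and 0.335 for MT-ATP6 over MT-CO3), the pair of MT-ATP8 and MT-CO3 does not, and MT-ND6 over MT-ND5 separates the lines.

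MT-ATP6 also has a nearly identical copy in the nuclear genome, the pseudogene MTATP6P1 at chr1:633696-634376, so reads may be divided between them. Over the 681 bases of both genes there were 10 differences, an identity of 98.53%, and the longest stretch without a difference was 141 bases. A stretch of 60 bases of both is shown because it holds 3 of these differences close together, which are in capitals. Counted from 1 at the first base of MT-ATP6 and written with its base first, they are C129T, A151C and A175G.
MT-ATP6, chrM:8642-8701, plus strand: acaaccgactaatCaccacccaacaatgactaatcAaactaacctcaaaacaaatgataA
MTATP6P1, chr1:633811-633870, plus strand: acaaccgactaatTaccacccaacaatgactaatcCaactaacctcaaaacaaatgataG
MTATP6P1 had 9421 and 11869 counts in SW1990 cells (log2 fold change 0.33) and 8385 and 7724 counts in PANC-1 cells (0.01), and was called in neither line. It held 35.3% of the reads of the pair in SW1990 cells without and 13.8% with radiation, and 32.4% and 15.4% in PANC-1 cells. Summed over gene and copy, the log2 fold change was 1.68 in SW1990 cells (26651 and 86040 counts) and 1.09 in PANC-1 cells (25863 and 50238 counts). The difference is therefore more than 2-fold in both lines also when reads of the pair are not told apart. The other copies of MT-ATP6 had at most 15 counts in a library.

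The 7 genes for subunits of complex I took 50.4% and 49.4% of the mitochondrial counts in SW1990 and 45.6% in both PANC-1 libraries. Their summed log2 fold change was 0.33 in SW1990 and -0.23 in PANC-1 cells. In SW1990 cells 6 of them, MT-ND1, MT-ND2, MT-ND3, MT-ND4L, MT-ND4 and MT-ND5, lay between 0.29 and 0.36, so that they differed little from each other. In PANC-1 cells the same 6 spread from -0.05 for MT-ND2 to -0.44 for MT-ND4. MT-ND4 had 149357 and 192227 counts in SW1990 and 132751 and 89444 counts in PANC-1 cells. MT-ND2 had 38262 and 33761 counts in PANC-1 cells, and its log2 fold change of -0.05 became 0.04 when libraries were scaled by total counts and 0.03 from FPKM. MT-ND4L and MT-ND4, which overlap, are read from one messenger, and their FPKM ratio was 0.849, 0.846 and 0.844 in the first 3 libraries and 0.959 in irradiated PANC-1 cells.

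The 3 genes of complex IV and the gene of complex III followed the same directions. MT-CO1 had 163502 and 191890 counts in SW1990 cells (log2 fold change 0.22) and 196212 and 136461 counts in PANC-1 cells (-0.39). MT-CO2, the subunit that takes electrons from cytochrome c, had 68150 and 86049 counts (0.33) and 75739 and 55430 counts (-0.32). Of the counts on protein genes, which also grow with the length of a gene, MT-CO1 took the largest share in 3 libraries, with 20.8% in unirradiated SW1990, 25.5% in unirradiated PANC-1 and 22.8% in irradiated PANC-1 cells, and in irradiated SW1990 cells MT-ND4 and MT-CO1 both took 18.9%. MT-CYB, cytochrome b, which is the only complex III subunit of this genome, had 73068 and 81905 counts in SW1990 (0.16) and 62040 and 47759 counts in PANC-1 cells (-0.25). None of these genes was called in either line.

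MT-ND6 is coded at chrM:14149-14673 on the minus strand of the reference, next to MT-ND5 and opposite to it in direction. It had 1942 and 1996 counts in SW1990 cells (log2 fold change 0.03, interval -0.06 to 0.12) and 3697 and 4329 counts in PANC-1 cells (0.36, interval 0.29 to 0.42). Hence it was the protein gene with the smallest difference in SW1990 cells and the only one beside MT-ATP6 with more reads in irradiated PANC-1 cells. Its FPKM relative to MT-ND5 was 0.0739 and 0.0595 in SW1990 and 0.161 and 0.231 in PANC-1 cells. The ratio was higher in both PANC-1 libraries than in both SW1990 libraries, and it was lower after radiation in SW1990 and higher after radiation in PANC-1 cells.

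Summed by direction, the 28 genes coded on the plus strand had log2 fold changes of 0.36 in SW1990 and -0.24 in PANC-1 cells. The 9 genes of the minus strand, MT-ND6 and 8 tRNAs, had 2011 and 2081 counts in SW1990 cells (0.04, interval -0.05 to 0.13) and 3889 and 4559 counts in PANC-1 cells (0.36, interval 0.30 to 0.42). MT-ND6 held most of the latter counts. The 8 tRNAs alone had 69 and 85 counts in SW1990 (0.29, interval -0.18 to 0.77) and 192 and 230 counts in PANC-1 cells (0.39, interval 0.11 to 0.67). Of the latter counts, MT-TE held 76 and 113, so the difference rests mostly on this gene. Thus the plus and minus strand sums differed in sign only in PANC-1 cells. These sums follow the coding strand of the genes. Whether reads were counted by strand is not given in the sources used here, so reads of either strand may lie on MT-ND6.

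The rRNA genes MT-RNR1 and MT-RNR2 encode the small and the large ribosomal RNA of the mitochondrial ribosome. MT-RNR2, at chrM:1671-3229, had 333 and 711 counts in SW1990 cells (log2 fold change 1.09, called) and 171 and 251 counts in PANC-1 cells (0.68, interval 0.40 to 0.97, not called). MT-RNR1, at chrM:648-1601, had 14 and 39 counts in SW1990 cells (1.47, interval 0.56 to 2.47, not called) and 104 and 30 counts in PANC-1 cells (-1.66, interval -2.30 to -1.07, called). The highest MT-RNR1 count thus lay in unirradiated PANC-1 cells and the lowest in unirradiated SW1990 cells. In FPKM the large rRNA was 14.7 and 11.4 times the small one in SW1990 and 1.004 and 5.162 times in PANC-1 cells. These RNAs made up so little of the libraries that MT-CO1 was between 273 and 1165 times as high as MT-RNR2 in FPKM. With such counts after an unknown degree of rRNA removal, these values describe what was left in each library. The 13 nuclear copies of MT-RNR2 (MTRNR2L1 to MTRNR2L13) had at most 1 count in a library.

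The tRNA genes were covered by few reads. In the 4 libraries the median tRNA gene had 22, 23, 40.5 and 37.5 counts, and MT-TV, the valine tRNA that is also part of the mitochondrial ribosome, had 0 counts in all of them, which allows a level of up to 0.168 CPM (counts scaled to library size) in the shallowest. MT-TL1, a leucine tRNA that directly follows MT-RNR2, had the most reads in every library. It had 253 and 455 counts in SW1990 cells (log2 fold change 0.84, interval 0.62 to 1.07) and 695 and 403 counts in PANC-1 cells (-0.66, interval -0.84 to -0.48). MT-TM, the methionine tRNA, had 46 and 97 counts in SW1990 cells (1.07, called) and 85 and 72 counts in PANC-1 cells (-0.11). It was the only tRNA gene called, 1 of 20 tested in SW1990 and 0 of 19 in PANC-1 cells. Of all genes tested 4.2% and 4.77% were called, so these counts do not set the tRNA genes apart.

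In sum the tRNA genes gave log2 fold changes of 0.54 in SW1990 cells (interval 0.40 to 0.67) and -0.23 in PANC-1 cells (-0.33 to -0.14). Of the summed counts MT-TL1 alone held 253 of 782 and 455 of 1139 in SW1990 cells. In PANC-1 cells it held 695 of 1973 and 403 of 1534, so both sums lean on this gene. Leaving out MT-TV, 12 genes were higher and 9 lower in SW1990 cells, with 4 intervals above 0 and 0 below. In PANC-1 cells 10 were higher and 11 lower, with 1 interval above 0, that of MT-TE (76 and 113 counts), and 4 below. These tallies include genes that were not tested, such as MT-TF. MT-TG and MT-TW had equal counts in both SW1990 libraries, as had MT-TF, MT-TC and MT-TA in PANC-1 cells. The scaling alone thus set their signs. MT-TA had 1 and 10 counts in SW1990 and 16 in both PANC-1 libraries, so that a fold change in SW1990 cells would rest on 1 read. MT-TT, the threonine tRNA, had 46 and 57 counts in SW1990 and 314 and 322 counts in PANC-1 cells and differed more between the lines than between the treatments. A read on a tRNA gene may come from a precursor that was not yet cut or from a neighbouring messenger, and these sources cannot be told apart in these tables.

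**Figure D4:**
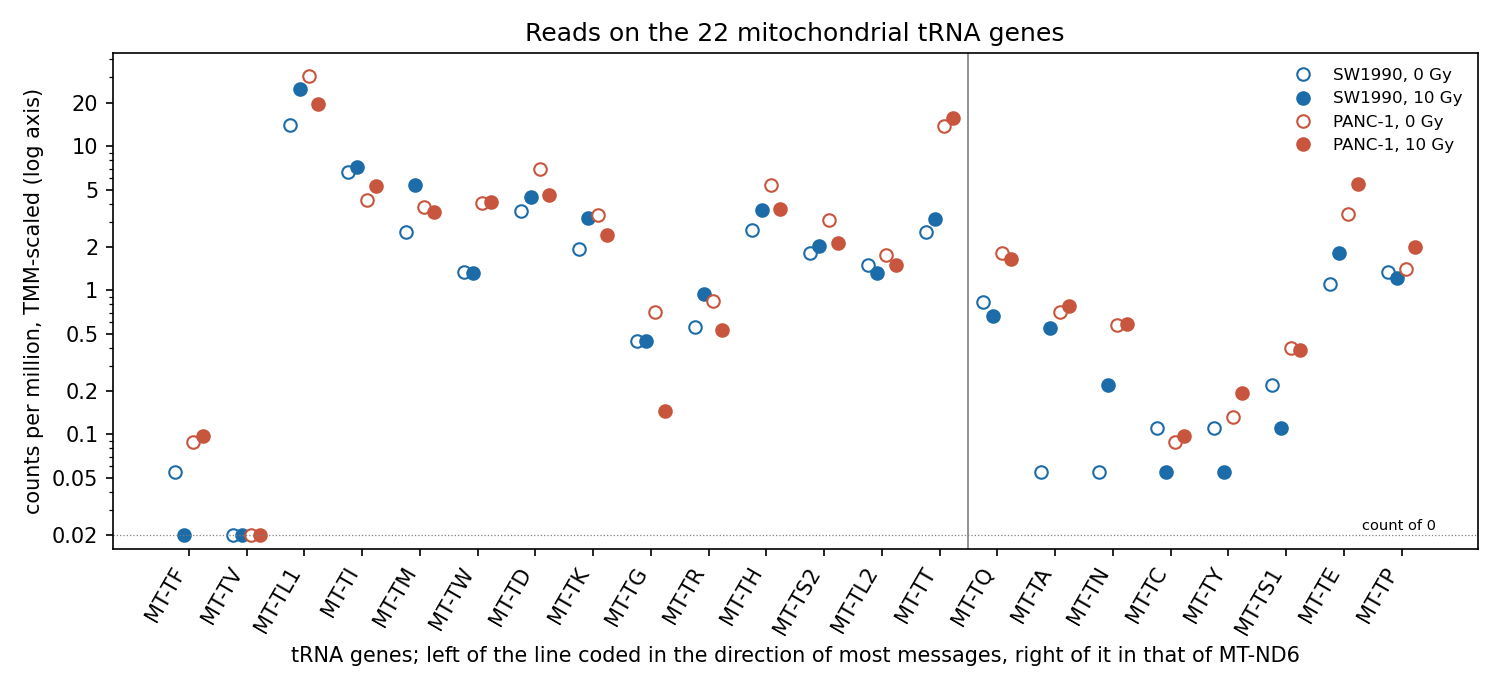
CPM, scaled by TMM within each line, on a log axis for the 22 mitochondrial tRNA genes in each library (open circles without radiation, filled circles with 10 Gy, SW1990 in blue and PANC-1 in red), with counts of 0 drawn on the dotted line. The 14 genes on the left are coded in the direction of most messengers and the 8 on the right in that of MT-ND6. MT-TL1 is highest in all 4 libraries, MT-TT is higher in both PANC-1 libraries and MT-TV is at 0 throughout.

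All 4 libraries were then put into 1 model with cell line and treatment as terms, tested by quasi-likelihood in edgeR and with 1 residual degree of freedom, so that each line served as a replicate of the treatment. For radiation, 0 of 31 mitochondrial genes tested passed an adjusted p-value of 0.05, where 0% of 18180 genes did, and the smallest adjusted p-value among them was 0.936. An unadjusted p-value below 0.05 was found for 2 mitochondrial genes, MT-ATP6 and MT-RNR2, and for 833 of all genes. The DESeq2 test of the same model called MT-ATP6 (adjusted p = 1.6e-11) as 1 of 38 genes, and limma-voom called 0. Thus the call of MT-ATP6 over both lines depends on the tool. The model has 1 treatment term for both lines, so differences of opposite sign in the lines cancel in it. MT-ND4, for example, had log2 fold changes of 0.36 in SW1990 and -0.44 in PANC-1 cells and -0.03 in the edgeR fit. For such genes the fit does not tell whether a line differed by treatment.

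Between the lines, with treatment as the other term, 9 of the 31 genes passed an adjusted p-value of 0.05 in the edgeR fit, where 43.6% of all genes tested did. The difference between these shares was not tested. Higher in SW1990 cells were MT-RNR2 (log2 difference 1.34, edgeR adjusted p = 0.011), MT-ND2 (0.85, 0.015), MT-ATP8 (0.84, 0.032), MT-ND3 (0.64, 0.039) and MT-CYB (0.61, 0.041). Higher in PANC-1 cells were MT-TT (log2 difference -2.52, edgeR adjusted p = 0.0039), MT-TW (-1.77, 0.022), MT-TE (-1.74, 0.022) and MT-ND6 (-0.92, 0.011). MT-TW and MT-TE did not pass by DESeq2 (adjusted p = 0.146 and 0.139), whereas the other 7 did. DESeq2 also passed MT-ND1 (adjusted p = 0.0496), MT-CO3 (0.032), MT-ND4L (0.0060), MT-ND4 (0.0071) and MT-ND5 (0.0023), all higher in SW1990 cells. By that tool 12 genes passed, 10 of them higher in SW1990 cells, where 6105 of all 18180 genes passed. In median, the 13 protein genes were 0.61 higher in SW1990 cells on the log2 scale and the difference of the 16 tRNA genes tested was -0.61. A test of whether radiation acted differently in the lines would leave no residual degree of freedom, so the fold changes of the lines were only set side by side.

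Other copies of mitochondrial genes in the nuclear genome drew reads as well. By their names there were 405 rows of copies, MTATP6P1 included. They summed to 41991, 46864, 36538 and 30808 counts in unirradiated SW1990, irradiated SW1990, unirradiated PANC-1 and irradiated PANC-1 cells. A few copies on chromosome 1 held nearly all of these counts. MTCO1P12, which is 98.64% identical to MT-CO1, had 15849 and 16786 counts in SW1990 (log2 fold change 0.08) and 17820 and 13430 counts in PANC-1 cells (-0.28). MTND2P28, which is 98.37% identical to MT-ND2, had 14879 and 16385 counts (0.13) and 8996 and 8535 counts (0.05). MTND1P23 is 96.50% identical to MT-ND1 over 371 aligned bases, of the 956 bases of that gene, and had between 687 and 923 counts. In SW1990 cells these copies thus had smaller differences than the genes they resemble, and whether their reads came from the nuclear or the mitochondrial genome was not tested.

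MTND4P12 on chromosome 5, which is 95.72% identical to MT-ND4, behaved differently. It had 426 and 397 counts in SW1990 and only 9 and 6 counts in PANC-1 cells, whereas MT-ND4 itself had between 89444 and 192227 counts. With all copies counted as mitochondrial, the sum took 4.653% and 5.813% of the counts in SW1990 and 3.461% and 3.148% in PANC-1 cells.

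Nuclear genes that serve the mitochondrial genome were examined as a list. Of 46 genes for its replication, transcription, RNA processing and RNA decay, 45 were tested in each line, and 1 was called in each, where 4.2% of all genes tested were called in SW1990 and 4.77% in PANC-1 cells, so these counts do not set the list apart. In SW1990 cells 24 were higher and 21 lower, with a median log2 fold change of 0.03, and in PANC-1 cells 19 were higher and 26 lower, with a median of -0.02. ERAL1, a chaperone of the small mitochondrial rRNA, was called higher in SW1990 cells (723 against 1486 counts, log2 fold change 1.03) and had 1379 and 1273 counts in PANC-1 cells (0.01). By FPKM its log2 fold changes were 0.93 in SW1990, below the limit of a call, and 0.52 in PANC-1 cells. KIAA0391 (PRORP), the nuclease that cuts the 5′ ends of mitochondrial tRNAs, was called lower in PANC-1 cells (670 and 233 counts, -1.39) and had 298 and 446 counts in SW1990 cells (0.58). By FPKM, however, KIAA0391 was at 6.11 and 6.68 in PANC-1 and at 9.24 and 8.54 in SW1990 cells, so its direction turned in both lines and its call is uncertain. It overlaps AL121594.3 on the same strand, which had 552 and 211 counts in SW1990 and 727 and 737 counts in PANC-1 cells.

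The other members of this group named for the size of their differences were not called. TFB1M, which methylates the small mitochondrial rRNA, had log2 fold changes of -0.42 and -0.38 in SW1990 and PANC-1 cells, MTERF2 -0.39 and -0.38, MTERF4, which acts on the mitochondrial ribosome, -0.26 and -0.51, and MRM1, which methylates the large rRNA, -0.44 and -0.29. By counts they were thus lower in both irradiated libraries, whereas by FPKM MTERF2 (0.13) and MTERF4 (0.0048) were not lower in PANC-1 cells. In the fit of 4 libraries 0 of the 46 genes passed an adjusted p-value of 0.05 for radiation by edgeR, where 0% of all genes did, and 6 passed for the difference between the lines, where 43.6% of all genes did.

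The nuclear genes for subunits of the same enzymes were compared next, since respiratory complexes are assembled from products of both genomes. All 72 genes of the list were found, 15 of them under older names, and all were tested. In SW1990 cells 43 were higher and 29 lower, with a median of 0.05, and in PANC-1 cells 36 were higher and 36 lower, with a median of -0.01. The medians of the 13 mitochondrial genes, 0.29 and -0.25, lay farther from 0 than these. NDUFA13, a complex I subunit, was the only member called, in the PANC-1 libraries (892 and 1858 counts, log2 fold change 1.19), with 691 and 1063 counts in those of SW1990 (0.61). The calls were thus 0 of 72 in SW1990 and 1 of 72 in PANC-1 cells, where 4.2% and 4.77% of all genes tested were called. By FPKM its log2 fold change in PANC-1 cells was 0.99, just below the limit of a call, and it overlaps AC011448.1 on the same strand, which had 104 and 110 counts there. NDUFA12 (-0.99), NDUFA6 (-0.85), ATP5J2 (-0.83), UQCR10 (-0.79) and COX7B (-0.78) had the largest other differences, all in PANC-1 cells and none called, with values in SW1990 cells between -0.32 and 0.08.

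As a view of how the libraries treat RNA without poly(A) tails, 5 nuclear RNAs of this kind were compared. Their summed FPKM was 124286 and 124974 in SW1990 and 153711 and 155673 in PANC-1 cells. Whole libraries summed to between 531930 and 545309. The part of the selection of RNA in this level was not tested. RN7SL1 and RN7SL2, the RNAs of the signal recognition particle, had log2 fold changes of 0.02 and -0.13 in SW1990 and 0.14 and -0.17 in PANC-1 cells. RN7SK, which holds back transcription elongation, had 0.01 and -0.21. RPPH1, the RNA of nuclear RNase P, had 0.08 and -0.19, and RMRP, the RNA of RNase MRP, had 0.34 and -0.06. None was called, and their medians were 0.02 in SW1990 and -0.17 in PANC-1 cells. The sums of the mitochondrial rRNAs and tRNAs were at 1.11 and 0.54 in SW1990 cells, above all 5 of these RNAs. The sets are unlike, since mitochondrial rRNAs can carry short poly(A) tails and the sample records describe a depletion of rRNA. In PANC-1 cells they were at 0.16 (interval -0.08 to 0.41) and -0.23, although the rRNA sum joins MT-RNR1 at -1.66 and MT-RNR2 at 0.68, which both lay farther from 0 than these RNAs.

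The identity of the cells was compared with markers. The epithelial markers KRT8 and KRT18 were high in all libraries, and the 6 epithelial markers summed to an FPKM of 2883 and 3720 in SW1990 and 1409 and 1639 in PANC-1 cells. CDH1 and EPCAM, which define epithelial junctions and surfaces, were at 140 and 217 in unirradiated SW1990 but at 0.673 and 2.28 in unirradiated PANC-1 cells. All 6 had positive log2 fold changes in SW1990 cells (median 0.36) and 5 of 6 in PANC-1 cells (median 0.14), and none was called. The part of this in the mitochondrial values was not tested. Markers of other cell types were low, with leukocyte markers summing to between 1.77 and 19.3, fibroblast markers to between 1.40 and 11.0, endothelial markers to at most 0.31 and erythroid markers to at most 1.28. Of the leukocyte markers, CD3E was at 0 in all libraries and PTPRC reached 0.0173. The most abundant leukocyte and fibroblast markers were CD68 (18.8 in unirradiated PANC-1 cells) and COL1A1 (11.0 in irradiated PANC-1 cells), while COL1A2 and DCN were at 0.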

How the data were processed

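RNA of 4 libraries was sequenced, 1 for each cell line and treatment. The authors deposited 1 table of 59263 rows with raw read counts and FPKM values, the latter scaled to transcript length and mapped fragments. The submitters' processing notes name Trimmomatic 0.36, HISAT2 2.0, StringTie 1.3.3b and DESeq2 1.12.4 on GRCh38, and the tool that made the counts is not given in the sources used here. The 1089 rows that name no gene (between 0.453% and 0.635% of counts) were neither counted in library sizes nor tested. Counts on genes ran from 17851815 to 23323266, and a floor of 3 counts corresponds to between 0.129 and 0.168 CPM.

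The read test was edgeR's binomTest (version 4.0.16, under R 4.3.3) at library sizes scaled by TMM, with no dispersion, and Benjamini-Hochberg adjustment, with limits of q and fold after the study's supplementary methods. Intervals are Clopper-Pearson for fold changes and Wilson for shares, at 95%. The fit of 4 libraries used edgeR's quasi-likelihood test with filterByExpr, and DESeq2 1.42.0 and limma 3.58.1 served as alternatives, beside other scalings, filters and limits. The tests were checked on simulated counts, for the read test with counting error only. For the fit of 4 libraries the simulated spread was smaller than the common coefficient of variation fitted here (0.218). The check therefore does not cover the spread between real samples. Where a gene is compared between the lines, treatment is a term of the fit.

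The members and gene lists were chosen with earlier results of these data known. Named were all 37 members, the 5 nuclear copies with the largest mean count and the copies of called genes, of each list the members called and otherwise up to 6 with the largest mean difference, and all RNAs without a poly(A) tail. KRT and other markers were taken from a fixed list. List genes were matched by gene identifier through older symbols, and RMRP, which has 2 rows, by the row with more counts.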

Additional observations from a re-analysis of the deposited data

Results flagged for a closer look

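For 13 mitochondrial genes the counting interval of the log2 fold change lay above 0 in SW1990 and below 0 in PANC-1 cells. This holds with TMM scaling, whereas MT-ND2 was at 0.04 in PANC-1 cells by total counts and at 0.03 from FPKM. The share of all genes with such intervals was not worked out, so the count is not set apart from them. The difference between the lines was not tested, since each condition has 1 library. The log2 fold change in SW1990 minus that in PANC-1 cells was 3.13 for MT-RNR1 (1.47 and -1.66), which rests on 14 to 104 counts, and 1.496 for the tRNA gene MT-TL1 (0.84 and -0.66). Among the protein genes it was 0.80 for MT-ND4, 0.69 for MT-CO3, 0.68 for MT-ATP8, 0.65 for MT-CO2, 0.62 for MT-CO1 and 0.61 for MT-ND4L. It was smaller for MT-ND5 (0.50), MT-ND3 (0.45), MT-CYB (0.41), MT-ND1 (0.40) and MT-ND2 (0.34). Each of the 11 protein genes named here is coded in the same direction.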

How the results depend on the processing

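Each group has 1 library, so no replicate could be left out. The fit of 4 libraries has 1 treatment term for both lines, in which differences of opposite sign in the lines cancel. No call of a mitochondrial gene reversed its direction under any alternative, while the nuclear KIAA0391, called lower in PANC-1 cells (-1.39), was at 0.13 by FPKM. With rows that name no gene in the denominator, the share of mitochondrial counts was 4.396%, 5.532%, 3.286% and 2.975% (SW1990 unirradiated and irradiated, PANC-1 unirradiated and irradiated). As a share of summed FPKM it was 6.883%, 9.009%, 5.088% and 4.692%, and with the nuclear copies added 4.653%, 5.813%, 3.461% and 3.148%. By fold alone 9 of 35 mitochondrial genes tested were called in SW1990 cells, where 9.6% of all genes were called. Among them MT-TA, MT-TC, MT-TY, MT-TS1 and MT-TN had only 1 to 10 counts in each SW1990 library and went in both directions. With an assumed coefficient of variation of 0.2 between replicates 1 was called (MT-ATP6, where 0.629% of all genes were), and with 0.4 the number was 0 (0.0954%). In PANC-1 cells the mitochondrial calls numbered 4 with a fold above 1.5 (11.8%), and 0 with either assumed coefficient (0.679% and 0.066%). The log2 fold change of the summed protein genes in SW1990 cells was 0.3305 by total counts, 0.3667 by DESeq2 size factors, 0.3758 by FPKM and 0.2824 without MT-ATP6. In PANC-1 cells it was -0.1425, -0.2612, -0.114 and -0.3053, and the median was -0.1576, -0.2763 and -0.1684 under the first 3. Scaled to the counts of the 13 genes themselves, the medians were -0.0666 in SW1990 and -0.0151 in PANC-1 cells, and the median of all genes moved to -0.37 and 0.22. With it 12 of 13 protein genes changed sign in SW1990 and 4 in PANC-1 cells. This scaling moves all genes alike and centres the 13 on their own sum, so these sign changes say nothing about direction. MT-ATP6 stayed higher in both lines (1.74 and 1.65). Under this scaling MT-RNR2 (0.73) and MT-TM (0.71) were no longer called in SW1990 cells, where 1 mitochondrial call was left and 6.13% of all genes were called. In the fit of 4 libraries, DESeq2 called 1 mitochondrial gene for radiation (38 of all 18180) against 0 by edgeR (0). Between the lines, 12 were called by DESeq2 (10 higher in SW1990 cells, 6105 of all genes), 11 by limma-voom (6, 8102), 10 with DESeq2's size factors in edgeR (6, 7799) and 6 with no filter on low counts (2, 6105 of 30227), against 9 (5, 7921 of 18180). MT-ATP6 with MTATP6P1 summed, the nuclear copies and the sums without MT-ATP6 were added after the data were seen.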
